A study of Homo sapiens with 16 samples.

Results

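The transcripts of 10 enzymes that make serine and pass its carbon to folate were followed through human lung adenocarcinoma cells: PHGDH, PSAT1 and PSPH, SHMT1 and SHMT2, MTHFD1, MTHFD1L and MTHFD2, ALDH1L2 and PCK2. They were chosen by name as a pathway, from 58735 genes per table of which 19951 are protein-coding, after levels of PHGDH, PSAT1 and PCK2 had been seen in part of the libraries described here. RNA sequencing covered NCI-H1975, a line that carries mutant EGFR with a further mutation conferring resistance to early EGFR kinase inhibitors, and parental HCC827, a line with a deletion that activates EGFR. The NCI-H1975 groups were a control, whose handling the labels do not describe, magnolin, a lignan found in magnolia flower buds, and the chloroform parts of Flos Magnoliae, the dried flower buds themselves, called the chloroform fraction below. Each group has 4 libraries: replicates 1 and 2 were deposited in one table (set A) and replicates 3 and 4 in another (set B), while HCC827 has 2 libraries in its own table. All 14 libraries used here carry the genotype label WT. The labels give neither a dose nor an exposure time, so differences between magnolin and the fraction may include either. Whether replicates are separate cultures is not said either, and p-values therefore cover only the spread between these libraries, possibly a technical one. Levels are in FPKM, fragments per kilobase of gene scaled to library size, and are given per library.

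PHGDH oxidises the glycolytic intermediate 3-phosphoglycerate, PSAT1 transfers an amino group to the product, and PSPH removes the phosphate to leave serine. SHMT2 in mitochondria and SHMT1 in the cytosol split serine into glycine and a one-carbon unit carried by folate. In mitochondria MTHFD2 oxidises that unit, and MTHFD1L releases it as formate or ALDH1L2 as carbon dioxide. Formate then leaves for the cytosol, where MTHFD1 puts it back on folate for the synthesis of purines and thymidylate. PCK2 is the mitochondrial phosphoenolpyruvate carboxykinase, which can feed carbon from the citric acid cycle towards 3-phosphoglycerate when glucose is scarce. Several of these genes are textbook targets of ATF4, the transcription factor induced by amino acid shortage and other stresses, and lung tumours vary widely in PHGDH.

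Stretches of the promoters are shown because these genes are often discussed as a group under shared control. RefSeq promoters (GRCh38.p14, 250 bases before and 50 after each start) were matched by symbol for 7 of the 10 genes; PSPH, SHMT2 and ALDH1L2 had no entry. In the 250 bases before each start, 2 words were searched on both strands: CCAAT, the word bound by NF-Y, and TGATGNAA, the composite word that ATF4 and a C/EBP partner can share. Each stretch runs 5′ to 3′ on the strand of its gene, from 20 bases before the first match to 20 bases after the last or to the start site, with matches in capitals.
PHGDH, chr1:119711843-119711887, plus strand: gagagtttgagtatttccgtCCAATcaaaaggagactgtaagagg
PSAT1, chr9:78296992-78297097, plus strand: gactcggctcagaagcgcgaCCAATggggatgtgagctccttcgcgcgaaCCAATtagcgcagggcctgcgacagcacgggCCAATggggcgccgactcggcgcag
PCK2, chr14:24094098-24094142, plus strand: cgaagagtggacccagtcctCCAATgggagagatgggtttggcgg
MTHFD2, chr2:74198411-74198565, plus strand: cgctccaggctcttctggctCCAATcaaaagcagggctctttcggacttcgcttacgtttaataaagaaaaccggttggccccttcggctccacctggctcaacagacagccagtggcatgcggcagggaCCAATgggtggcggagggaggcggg
MTHFD1L, chr6:150866273-150866384, plus strand: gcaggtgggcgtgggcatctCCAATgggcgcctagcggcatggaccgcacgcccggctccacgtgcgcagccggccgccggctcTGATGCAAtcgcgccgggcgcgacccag
SHMT1, chr17:18363551-18363646, minus strand: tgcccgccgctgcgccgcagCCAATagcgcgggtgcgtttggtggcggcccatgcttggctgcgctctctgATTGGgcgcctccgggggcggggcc
MTHFD1, chr14:64388117-64388161, plus strand: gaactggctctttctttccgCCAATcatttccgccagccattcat
CCAAT was present in 7 of 7 genes, against 37.0% of 27305 genes and 32.0% of 35116 promoters searched in the same way. PSAT1 held it 3 times within 106 bases, MTHFD2 2 times, and SHMT1 once on each strand. TGATGNAA was present in 1 of 7, MTHFD1L, against 3.89% of genes and 3.14% of promoters. It lies 90 bases before the start of the MTHFD1L promoter shown and 129 bases before another start. Further MTHFD1L promoters lacked it, and that at chr6:151006758-151007057 lacked CCAAT as well. Where a gene had several promoters, that with most matches is shown, or the first on a tie. The stretches of PHGDH, PCK2, MTHFD1 and MTHFD1L lie inside the gene spans that were counted, those of MTHFD2 and SHMT1 reach into theirs, and that of PSAT1 lies before it. The 7 genes with the word include SHMT1 and MTHFD1, whose transcripts behaved unlike the others below. A match describes these letters only.

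Library facts that touch the results are few. Reads rebuilt from FPKM numbered 18.4 to 21.3 M per library in set A. The other libraries were less deep, at 16.0 to 17.0 M reads for set B and 15.9 to 16.4 M reads for HCC827. All 10 genes passed the filter of 1 FPKM in at least 2 libraries in both NCI-H1975 sets, and they had between 178 reads (ALDH1L2, lowest library) and 7283 reads (PSAT1, highest library). Within set B, replicates of a group lay close together, with a chi-square per gene of 3.73, 3.84 and 11.6 for control, magnolin and fraction. Within set A the replicates of a group lay far apart (114, 103 and 107), farther than libraries of different groups that share a number (14.1 to 50.9). Summed FPKM of 6 epithelial markers was 1111 to 1313 in the set A libraries numbered 1 and 393 to 581 in those numbered 2. All 6 were above 0.1 FPKM in every library, and 4 leukocyte markers summed to at most 0.809 FPKM. Lung lineage markers (NKX2-1, NAPSA and SFTPB) summed to 1.76 to 9.21 FPKM in NCI-H1975 and 107 to 116 in HCC827.

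**Figure D1:**
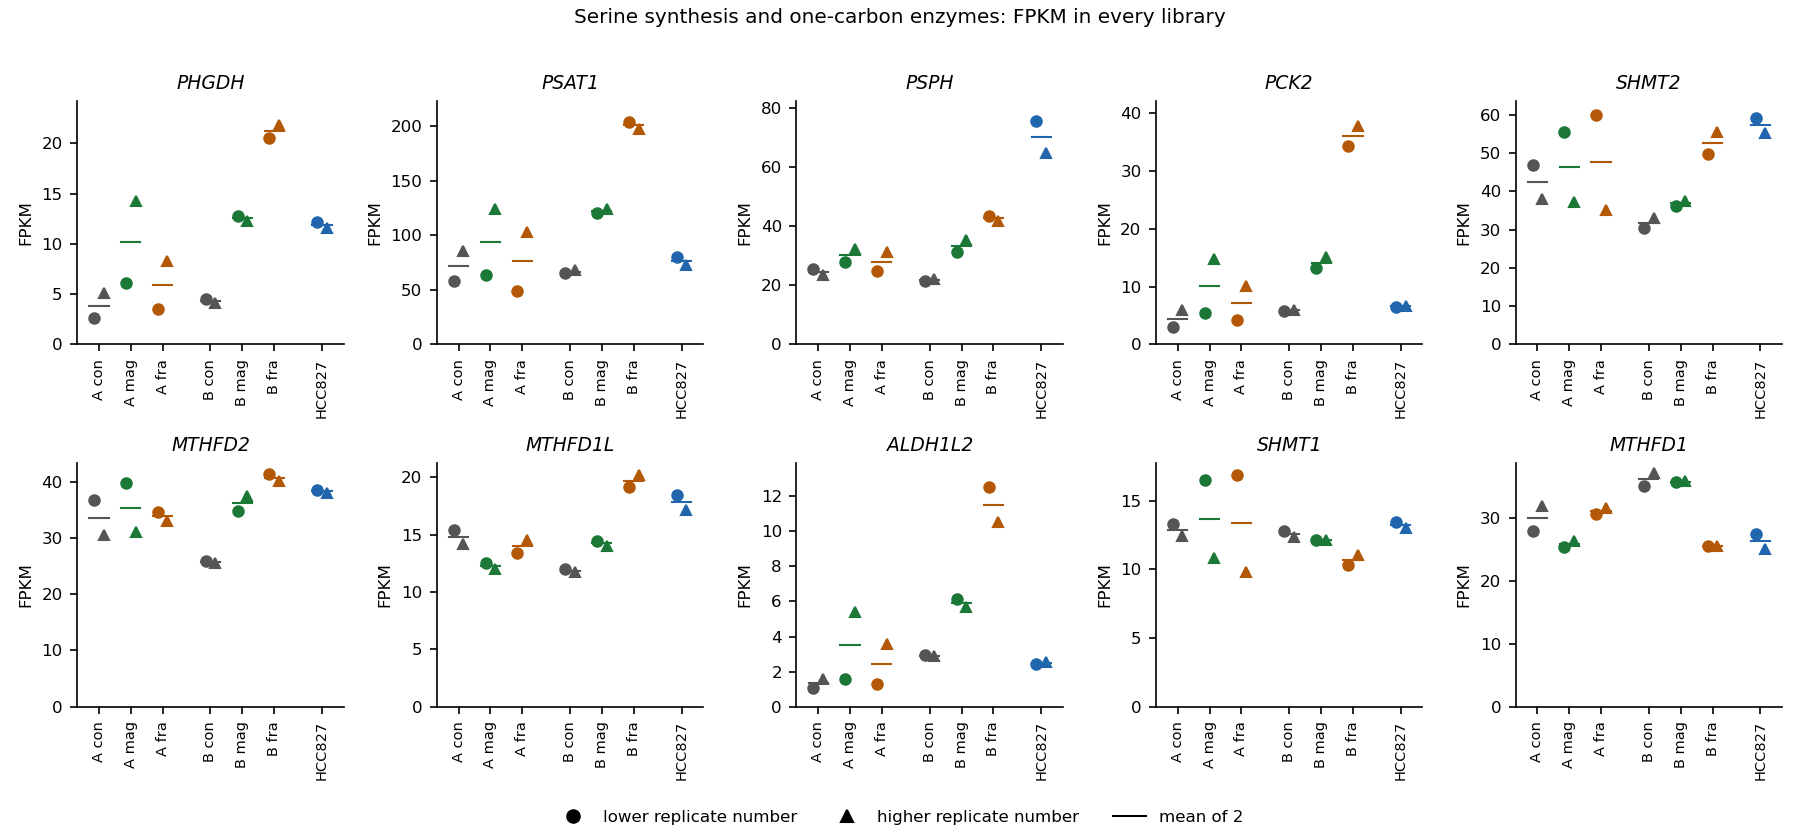
FPKM of the 10 enzyme transcripts (vertical axes, each from 0) in every library, by set and group (A and B, NCI-H1975 control, magnolin and fraction, then parental HCC827); circles and triangles are the lower and higher replicate number, and bars are means of 2. PHGDH, PSAT1, PCK2 and ALDH1L2 step up from control to magnolin to fraction in set B, and for these 4 the triangles stand above the circles in every group of set A.

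In set B the enzymes of serine synthesis were higher after magnolin and higher again after the fraction. PHGDH (ENSG00000092621, hg38 chromosome 1, 119648411-119744226, plus strand) measured 4.498 and 4.11 FPKM in the controls, 12.8 and 12.3 with magnolin and 20.6 and 21.9 with the fraction. No group overlapped another, and each fraction library held 4.57 and 5.33 times the FPKM of the control with its number. PSAT1 (ENSG00000135069, chromosome 9, 78297143-78330093, plus strand) had the highest FPKM of the 10 in all libraries except fraction replicate 1. It went from 65.1 and 68.6 FPKM in controls to 121 and 125 with magnolin and 204 and 198 with the fraction. PSPH (ENSG00000146733, chromosome 7, 56011051-56051604, minus strand) moved least of these enzymes, at 21.6 and 22.1 FPKM in controls, 31.4 and 35.5 with magnolin and 43.6 and 41.9 with the fraction. Its 3 groups did not overlap either. On the log2(FPKM + 1) scale the change from control to fraction was 2.07 (SE 0.081) for PHGDH, 1.57 (SE 0.065) for PSAT1 and 0.94 (SE 0.082) for PSPH. From control to magnolin it was 1.35, 0.87 and 0.59 with the same standard errors. These set B values are a description: those of PHGDH and PSAT1 were known when the genes were chosen. The share of all genes whose groups did not overlap was not counted.

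PCK2 (ENSG00000100889, chromosome 14, 24094053-24110598, plus strand) had the widest span of all, 2.96 to 37.9 FPKM over the 14 libraries, or 12.8-fold across tables that were normalised separately. In set B its levels were 5.79 and 5.95 FPKM in controls, 13.2 and 15.1 with magnolin and 34.4 and 37.9 with the fraction. The log2 change was 1.14 (SE 0.094) with magnolin and 2.43 (SE 0.094) with the fraction, and the libraries with the fraction held 2.61 and 2.51 times the FPKM of the magnolin libraries with the same number. PCK1, the cytosolic form of the enzyme, had 1 read in a single library (magnolin replicate 1) and 0 in the others, where a count of 0 allows up to 3 reads.

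In set B the mitochondrial folate enzymes SHMT2, MTHFD2, MTHFD1L and ALDH1L2 were also called higher with the fraction than in control, beside 8.33% of all tested genes. Between magnolin and control, ALDH1L2 alone of these 4 was called, beside 0.252% of all tested genes. With the replicate number as a block none of the 4 was called, and with limma voom MTHFD2 was called as well as ALDH1L2. SHMT2 (ENSG00000182199, chromosome 12, 57229327-57234935, plus strand) was at 30.3 and 33.1 FPKM in controls of set B, 36.2 and 37.5 with magnolin and 49.7 and 55.5 with the fraction. MTHFD2 (ENSG00000065911, chromosome 2, 74198562-74217565, plus strand) was at 25.9 and 25.5, then 34.9 and 37.6, then 41.4 and 40.2 FPKM. For this enzyme most of the distance was covered by magnolin, at a log2 change of 0.48 (SE 0.071) against 0.65 (SE 0.071) with the fraction. MTHFD1L (ENSG00000120254, chromosome 6, 150865549-151101887, plus strand) showed the reverse division, 11.97 and 11.8 FPKM in controls, 14.5 and 14.1 with magnolin and 19.2 and 20.2 with the fraction, for log2 changes of 0.24 (SE 0.071) and 0.68 (SE 0.071). ALDH1L2 (ENSG00000136010, chromosome 12, 105019784-105084577, minus strand) had the lowest FPKM of the 10 in the controls, at 2.95 and 2.87. It measured 6.16 and 5.67 with magnolin and 12.5 and 10.5 with the fraction. Its log2 change with the fraction, 1.67 (SE 0.10), was close to that of PSAT1 on the log2(FPKM + 1) scale, which understates changes of low genes. As ratios of FPKM to the control with the same number, ALDH1L2 stood higher, at 4.24 and 3.67 against 3.14 and 2.88 for PSAT1. MTHFD2L, another mitochondrial enzyme of the MTHFD2 type, stayed between 1.86 and 2.62 FPKM in set B, with a log2 change of -0.09 (SE 0.15, limma adjusted p = 0.703) from control to fraction. ALDH1L1, the cytosolic relative of ALDH1L2, had 1 to 23 reads per library and at most 0.102 FPKM.

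The cytosolic enzymes were not called higher in either set B contrast with control. MTHFD1 (ENSG00000100714, chromosome 14, 64388031-64463457, plus strand) was at 35.2 and 37.3 FPKM in controls of set B and 35.8 and 35.9 with magnolin, and at 25.6 in both libraries with the fraction, a log2 change of -0.49 (SE 0.067). Control and magnolin overlapped, and the fraction stood below both. SHMT1 (ENSG00000176974, chromosome 17, 18327860-18363563, minus strand) was at 12.8 and 12.3 FPKM in controls, 12.1 in both magnolin libraries and 10.3 and 11.1 with the fraction. The change from control to fraction was -0.21 (SE 0.075) on the log2 scale. SHMT1 shares genomic sequence with SMCR8 on the other strand (7.62 to 15.3 FPKM) and MTHFD1 with ZBTB25 (1.28 to 4.81 FPKM). ALDH1L2 overlaps C12orf45 on the other strand (0.274 to 0.959 FPKM and up to 430 reads), where ALDH1L2 itself had as few as 178 reads. Whether strand was used in counting is not given, so reads from such overlaps cannot be told apart. PSPHP1, a pseudogene of PSPH, had 52 to 119 reads in each NCI-H1975 library, against 1027 to 1961 for PSPH, and 0 in HCC827. Set B libraries of PSPHP1 lay between 13.5 and 17.2 FPKM over its 261-base model and its 3 groups overlapped.

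Of the 10 genes, limma called 8 higher and 1 lower (MTHFD1) between fraction and control in set B, beside 8.33% of 14673 tested genes called higher and 11.6% lower. SHMT1 was not called. Between magnolin and control it called 4 higher (PHGDH, PSAT1, ALDH1L2 and PCK2) and none lower, beside 0.252% higher and 0.375% lower. With the replicate number as a block this fell to 3, without ALDH1L2, beside 0.143%. Between fraction and magnolin 7 were called higher and 1 lower (MTHFD1), beside 5.55% and 9.36%; with the block 6 were higher, without PSPH, beside 3.21%. The 7 became 5 without the filter on low genes (PSPH and SHMT2 lost) and 4 with only the 2 groups in the fit or without control replicate 4 (MTHFD1L lost as well). The genes were chosen knowing some of these contrasts, so nothing is read from the counts. Leaving out a control or magnolin library of set B leaves 1 library in that group. From control to magnolin the median log2 change of the 10 was then 0.46 to 0.60, against 0.53 with all libraries. The highest was 1.30 to 1.41, against 1.35. The magnolin calls were not kept in these fits, for the 10 or for any other gene. Most calls between fraction and magnolin were also lost without a magnolin library. In contrast, the 8 higher calls between fraction and control were made again without each library in turn, while the MTHFD1 call was lost without control replicate 4.

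**Figure D2:**
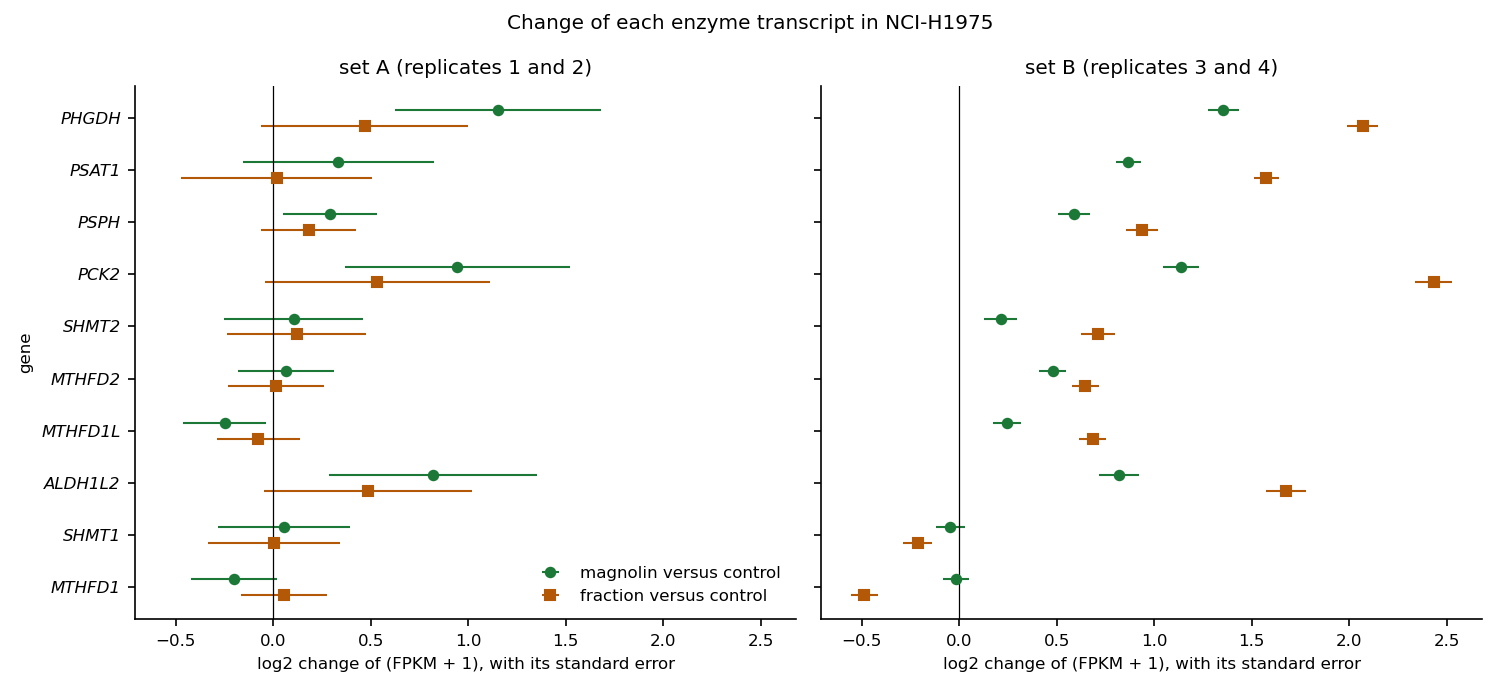
Change in log2(FPKM + 1) from control to magnolin (circles) and to the chloroform fraction (squares) for each enzyme, with its standard error from limma, in set A (left) and set B (right); 2 libraries per group. In set B 8 enzymes lie to the right of 0 for the fraction, from 0.65 for MTHFD2 to 2.43 for PCK2, and the set A errors are several times wider.

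Other properties of the libraries also differed between the groups of set B, and their part in these results was not tested. Summed FPKM of the proliferation markers MKI67, TOP2A and CCNB1 was 211 and 235 in controls, 228 and 225 with magnolin and 56.2 and 57.9 with the fraction. The share of reads from mitochondrial genes was 5.84 and 5.83% in controls, 6.40 and 6.38% with magnolin and 8.17 and 7.04% with the fraction. The epithelial marker sum was 619 and 613 FPKM in controls, 445 and 440 with magnolin and 410 and 449 with the fraction. Summed FPKM of 3 endothelial markers differed by group without overlap, at 6.24 and 4.29 in controls, 1.69 and 1.47 with magnolin and 0.943 and 0.832 with the fraction, with 1 or 2 of the 3 under 0.1 FPKM. Fibroblast markers summed to 24.2 and 19.0, 15.2 and 14.8, and 9.74 and 10.2 FPKM in that order, with 2 or 3 of the 5 under 0.1 FPKM in each library. In bulk RNA, fewer cells with a transcript and less of it per cell cannot be told apart.

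The split between compartments shows in ratios of FPKM within each library, which need no scaling between libraries. Their absolute size depends on the gene models, so only their differences between groups are read. SHMT2 over SHMT1 was 2.38 and 2.69 in controls of set B, 2.99 and 3.09 with magnolin and 4.83 and 5.02 with the fraction. MTHFD1L over MTHFD1 was 0.340 and 0.316 in controls, 0.405 and 0.391 with magnolin and 0.749 and 0.791 with the fraction. MTHFD2 over MTHFD1 went from 0.736 and 0.683 through 0.976 and 1.05 to 1.62 and 1.57. A value of 1 has no meaning of its own here, as the gene models measure 4870 and 9377 bases. In all 3 ratios the groups did not overlap, but the ratios over MTHFD1 share that denominator. Each mitochondrial numerator was higher and, with the fraction, each cytosolic denominator was lower, though SHMT1 was not called (limma adjusted p = 0.0995). How often ratios of other gene pairs separate the groups was not counted. In set A, SHMT2 over SHMT1 overlapped between control and magnolin, from 3.05 to 3.52, and the fraction stood just above both at 3.55 and 3.57. MTHFD1L over MTHFD1 lay between 0.438 and 0.550 with its highest value in control replicate 1. MTHFD2 over MTHFD1 was 1.31 and 0.952 in controls 1 and 2, 1.56 and 1.18 with magnolin and 1.13 and 1.04 with the fraction, so magnolin was above both other groups within each number. In FPKM, PSAT1 stayed above PHGDH throughout: 14.5 and 16.7 times in controls of set B, 9.45 and 10.1 with magnolin and 9.94 and 9.04 with the fraction. The size of this ratio depends on the gene models, 2188 bases for PSAT1 and 9217 for PHGDH. In reads, control replicate 3 had 2474 for PSAT1 against 720 for PHGDH.

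**Figure D3:**
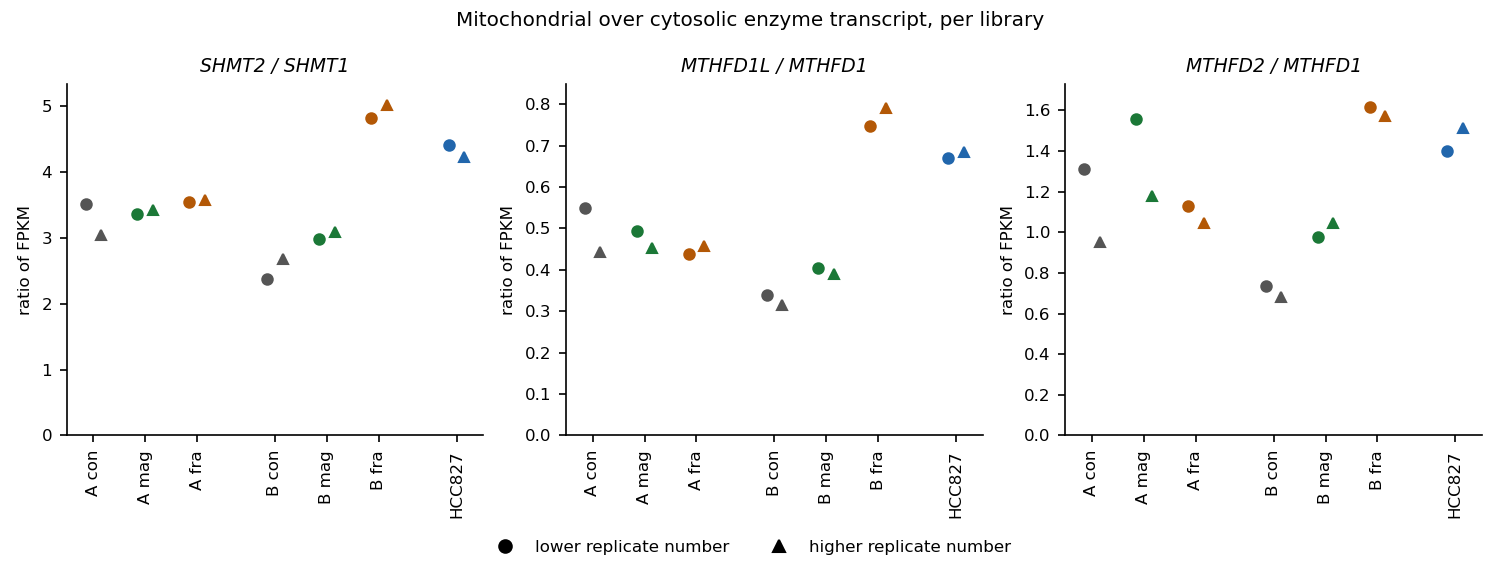
Ratio of FPKM between a mitochondrial and a cytosolic enzyme transcript (vertical axes, from 0) in each library, by set and group; circles and triangles are the lower and higher replicate number. In set B the ratio of SHMT2 to SHMT1 climbs from 2.38 and 2.69 in controls to 4.83 and 5.02 with the fraction, while all set A libraries lie between 3.05 and 3.57.

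Set A gives the same contrasts in libraries that were not used to choose the genes. Here the replicate number separated the libraries more than the treatment did. PHGDH was at 2.62 and 5.12 FPKM in controls 1 and 2, 6.16 and 14.3 with magnolin and 3.54 and 8.34 with the fraction. Magnolin thus stood above control without overlap, the fraction overlapped both, and replicate 2 was 1.96 to 2.36 times replicate 1 in each group. PCK2 showed the same layout, at 2.96 and 5.92, 5.45 and 14.7, and 4.20 and 10.04 FPKM, with control replicate 2 above magnolin replicate 1. ALDH1L2 was at 1.07 and 1.58 FPKM in controls, 1.59 and 5.40 with magnolin and 1.29 and 3.55 with the fraction. Replicate 2 of PSAT1 also exceeded replicate 1 in every group, at 58.0 and 85.8, 63.9 and 124, and 49.3 and 103 FPKM. SHMT2 and SHMT1 ran the other way: replicate 2 of SHMT2 was 0.812, 0.667 and 0.586 times replicate 1 in control, magnolin and fraction. The libraries numbered 2 are those with the lower epithelial marker sum given above, and the part of that difference in these levels was not tested.

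Without a block, limma called 0% of 13103 genes in set A in each of the 3 comparisons, and all 10 enzymes had an adjusted p of 0.9998 or 1. At an unadjusted p under 0.05 there were 107 genes for fraction against control, 255 for magnolin against control and 93 for fraction against magnolin, and limma voom on the rebuilt reads also called 0. With the replicate number as a block, 0.481% of genes were called higher with magnolin, and PHGDH and PCK2 were 2 of these 63. PHGDH changed by 1.15 (SE 0.179 with the block and 0.530 without, limma adjusted p = 0.00902 with the block), and magnolin held 2.35 and 2.79 times the FPKM of the control with its number. For PCK2 the change was 0.94 (SE 0.184 with the block and 0.577 without, limma adjusted p = 0.0301 with the block), with ratios of 1.84 and 2.48. ALDH1L2 was higher with magnolin in both numbers too, by 0.82 on the log2 scale, but did not pass (limma adjusted p = 0.111 with the block). The numbers are treated as pairs because the libraries that share one deviate together; the labels do not say what a number stands for.

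The other 7 enzymes did not pass in any set A comparison, with or without the block. With magnolin, PSAT1, PSPH and MTHFD2 were higher in both numbers, by 0.33, 0.29 and 0.07 on average. MTHFD1 and MTHFD1L were lower in both, by -0.20 and -0.25. SHMT1 and SHMT2 were higher in number 1 and lower in number 2. With the fraction, PHGDH (0.47), PCK2 (0.53) and ALDH1L2 (0.49) were higher than control in both numbers, none of the 10 was lower in both, and 7 were split. The lowest adjusted p for the fraction against control was that of PCK2 with the block (limma adjusted p = 0.479). PSAT1, whose FPKM in set B was 3.14 and 2.88 times control, stood at 0.851 and 1.202 times control in set A.

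For some of the enzymes magnolin and the fraction changed places between the sets, though none of the 10 passed between these groups in set A. In set A 5 enzymes were lower with the fraction than with magnolin in both numbers: PHGDH, PSAT1, PSPH, ALDH1L2 and PCK2. In set B each of these was higher with the fraction in both numbers. PHGDH differed by -0.68 between fraction and magnolin in set A (limma adjusted p = 0.185 with the block) and by 0.71 in set B, and PCK2 by -0.41 and 1.30. MTHFD1 crossed in the opposite sense, at 0.26 in set A and -0.47 in set B. The difference between the sets was not tested, and since no dose is given the 2 sets may not have had the same one. How many of all tested genes change places in this way was not counted. Set B levels of PHGDH, PSAT1 and PCK2 were known when the genes were chosen. Both contrasts against control share their control libraries within a set, so their likeness within a set carries no weight.

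**Figure D4:**
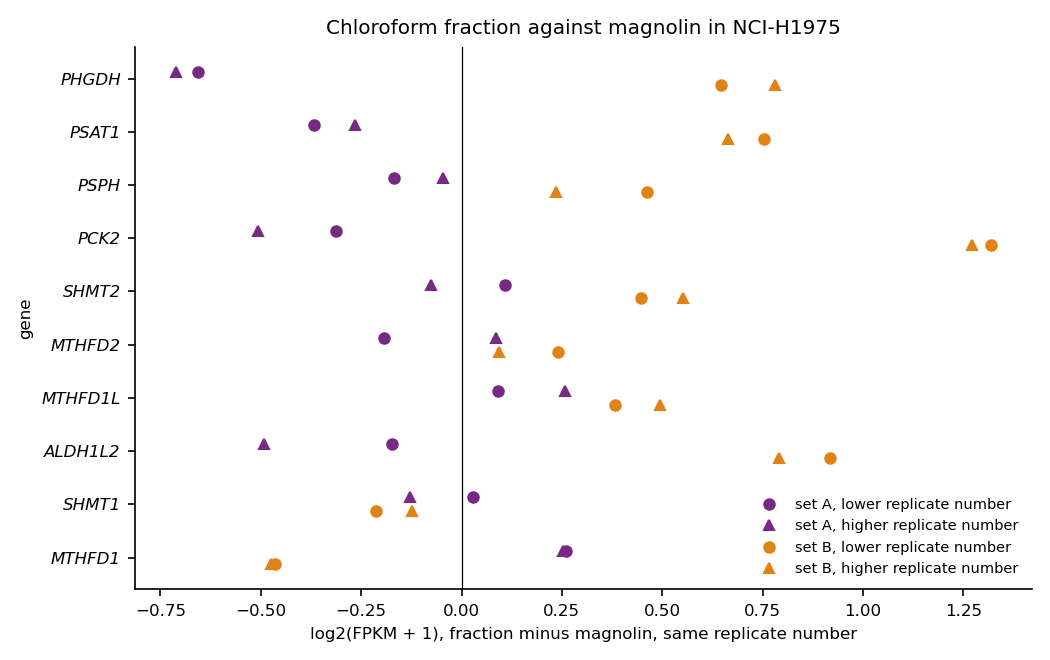
Difference in log2(FPKM + 1) between the chloroform fraction and magnolin libraries with the same replicate number (horizontal axis), for set A (purple) and set B (orange), with circles and triangles for the lower and higher number. PHGDH, PSAT1, PSPH, PCK2 and ALDH1L2 lie left of 0 in set A and right of 0 in set B, and MTHFD1 the reverse.

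Parental HCC827 cells had a different balance, with levels set by a separate normalisation and no test across tables. PSPH measured 75.9 and 64.7 FPKM there, against 21.6 to 43.6 over all NCI-H1975 libraries, and came next after PSAT1 (80.6 and 72.4). PHGDH was at 12.2 and 11.6 FPKM, inside the range of the NCI-H1975 libraries with magnolin and above all 4 controls. PCK2 (6.53 and 6.73) and ALDH1L2 (2.45 and 2.53) were near their levels in NCI-H1975 controls of set B. SHMT2 at 59.2 and 55.2 and SHMT1 at 13.4 and 13.0 gave a ratio of 4.41 and 4.24, above every NCI-H1975 library without the fraction of set B. MTHFD2 was at 38.6 and 38.0, MTHFD1 at 27.6 and 25.1 and MTHFD1L at 18.5 and 17.2 FPKM. Within each HCC827 library the order of FPKM from high to low was PSAT1, PSPH, SHMT2, MTHFD2, MTHFD1, MTHFD1L, SHMT1, PHGDH, PCK2 and ALDH1L2. Neighbours in that order did not overlap over the 2 libraries, except PSAT1 and PSPH. Resistant HCC827 cells were not analysed here.

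In NCI-H1975 controls of set B the order of FPKM began with PSAT1, MTHFD1 and SHMT2 and ended with PCK2, PHGDH and ALDH1L2 in both libraries. With the fraction PCK2 stood above MTHFD1 and PHGDH above MTHFD1L in both libraries, and SHMT1 and ALDH1L2 came last. PHGDH, the entry enzyme of serine synthesis, thus had among the lowest FPKM of the 10 in controls. PSAT1 over PHGDH in FPKM reached 22.2 in control replicate 1 of set A. FPKM divides by the length of the gene model, 9217 bases for PHGDH and 2188 for PSAT1, so ranks between genes depend on these models. In reads, control replicate 3 had 720 for PHGDH, 421 for PCK2 and 436 for ALDH1L2.

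Genes around the route, from lists drawn up with earlier results known, were read in the same fits. Of 21 tested genes of the ATF4 axis, 18 rose with the fraction in set B and none fell, beside 8.33% of all tested genes called higher and 11.6% lower (median log2 change 1.29, all tested genes -0.01). The median of that list was 0.47 with magnolin, where 3 rose, beside 0.252% of all tested genes: SLC7A5, STC2 and AARS. With the replicate block AARS no longer passed. ATF4 itself was at 61.5 and 67.0 FPKM in controls, 82.8 and 79.7 with magnolin and 115 and 122 with the fraction. CHAC1, which degrades glutathione, rose by 2.60 (SE 0.26, limma adjusted p = 0.00247) with the fraction, and ASNS, the asparagine synthetase, rose from 0.478 and 0.494 to 2.45 and 2.83 FPKM. In set A no gene of the list passed without a block. With the block 3 rose with magnolin: CHAC1 by 1.69 (limma adjusted p = 0.00404), DDIT4 by 1.35 (0.00556) and SESN2 by 1.12 (0.0331). CHAC1, DDIT4 and SESN2 all stood higher with the fraction than with control in set A as well, by 0.97, 0.84 and 0.63, and did not pass there.

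Of 6 tested carriers of serine and glycine, 4 rose with the fraction in set B and none fell, beside the same 8.33% and 11.6% of all tested genes. SLC1A4, an exchanger of serine and other small neutral amino acids, was at 4.28 and 4.64 FPKM in controls, 7.45 and 8.55 with magnolin and 14.5 and 14.4 with the fraction. It was also the only carrier that rose with magnolin (0.72, SE 0.091, limma adjusted p = 0.0393), a call lost with the replicate block. The glycine transporter SLC6A9 rose by 0.80, SLC38A1 by 0.59 and the glutamine and serine carrier SLC1A5 by 0.57. SLC25A32, which brings folate into mitochondria, was at no more than 0.42 FPKM in any library and was not tested.

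Of 12 tested genes that use serine, 2 rose with the fraction in set B and none fell, a count near the 8.33% over all tested genes. CTH, which completes cysteine synthesis from serine and homocysteine, rose from 8.11 and 8.63 FPKM to 32.6 and 30.2 (log2 change 1.79, SE 0.14, limma adjusted p = 0.00118), with 13.3 and 17.8 under magnolin. SDSL, a serine dehydratase-like gene, rose by 0.57. Of 11 tested genes around 3-phosphoglycerate and phosphoenolpyruvate, 4 rose and 3 fell with the fraction, beside 8.33% and 11.6% (median 0.03), and with the block 2 rose and 1 fell. GPT2, the mitochondrial alanine transaminase, rose by 1.39 and the enolase ENO2 by 0.999, while FBP1, fructose bisphosphatase, fell by 0.46. None of the 11 passed with magnolin in set B, and ENO2 alone did in set A with the block (0.83, limma adjusted p = 0.0483).

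Folate genes outside the 10 divided. Of 17 tested, 3 rose with the fraction in set B (FTCD, SFXN3 and MTFMT) and 4 fell, beside 8.33% and 11.6% of all tested genes (median -0.05), and with the block 1 rose and 3 fell. TYMS, the thymidylate synthase, fell from 13.1 and 12.6 to 3.85 and 5.56 FPKM, and GGH, which trims folate side chains, by 1.06. SFXN1, a mitochondrial serine carrier, fell by 0.33. FTCD, which passes histidine carbon to folate, rose by 0.72 (SE 0.16). With magnolin none of the 17 passed, and TYMS was at 12.9 and 12.1 FPKM there. TYMS is an S-phase gene, and the proliferation markers given above moved with it; the part of that in its change was not tested. Purine synthesis genes had 3 of 12 lower with the fraction (PAICS by -0.46, PRPS2 by -0.44 and PRPS1 by -0.37), beside 11.6% of all tested genes, and none higher. Under the block 2 were called. None of 5 methionine cycle genes passed in any comparison. MYC, 1 of 4 further regulators, rose by 0.69 with the fraction.

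**Figure D5:**
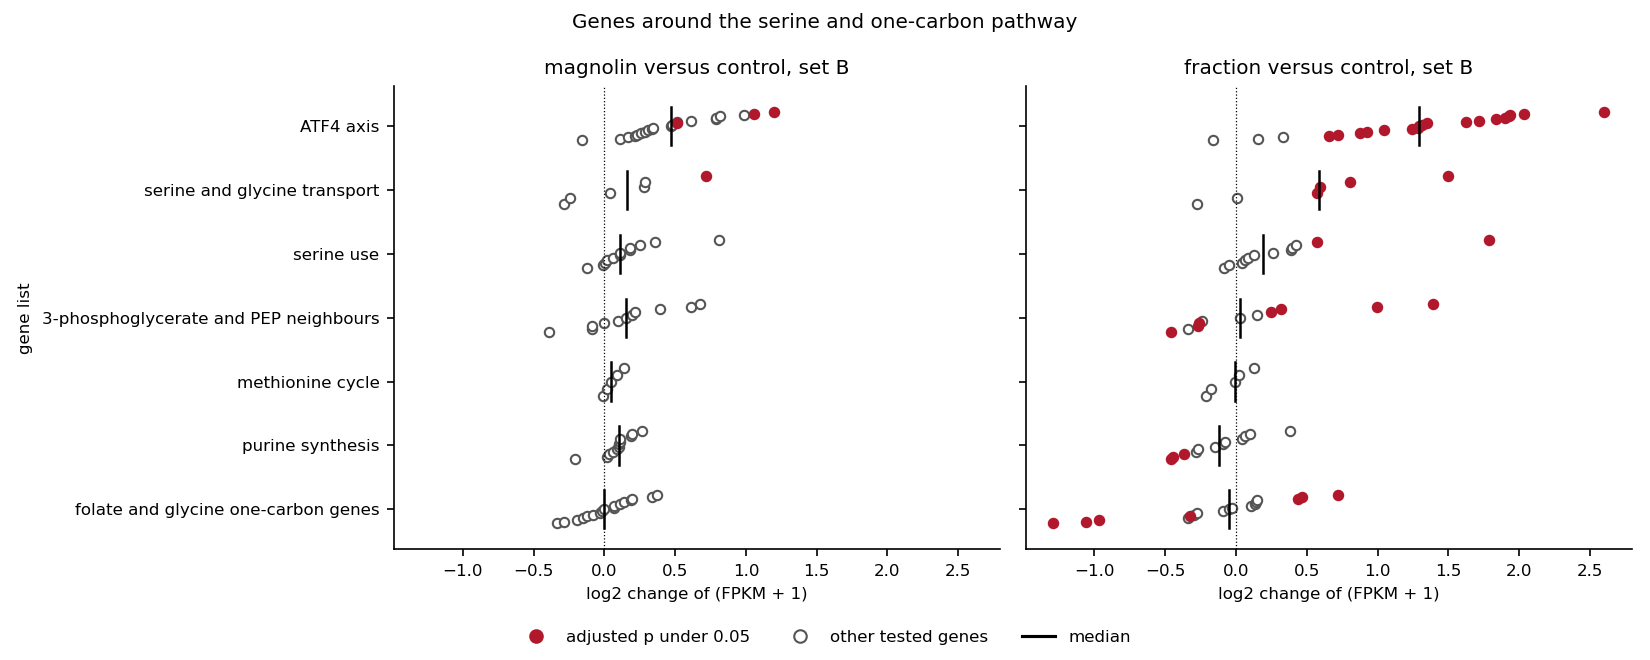
Change in log2(FPKM + 1) in set B with magnolin (left) and the chloroform fraction (right) for each tested gene of 7 lists around the route; filled points have a limma adjusted p under 0.05, open points do not, and bars are list medians. With the fraction 18 of 21 ATF4 axis genes are filled and to the right, whereas folate genes spread from -1.29 (TYMS) to 0.72 (FTCD).

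The likeness of other transcripts to PHGDH was measured by Pearson's r over the 12 NCI-H1975 libraries after the mean of each set was removed, among 10711 protein-coding genes. The libraries share their groups and, in set A, their replicate numbers, so r describes this collection only. Levels of PHGDH, PSAT1 and PCK2 in set B were known when the genes were chosen and enter r, so nothing is read from r among the members. Among the members r was 0.973 for PCK2, 0.965 for ALDH1L2, 0.951 for PSAT1 and 0.911 for PSPH, then 0.578 for MTHFD2, 0.526 for MTHFD1L, 0.254 for SHMT2, -0.569 for SHMT1 and -0.615 for MTHFD1. With each replicate number's mean removed in place of the set's, SHMT2 moved to 0.793 and MTHFD2 to 0.887. Outside the members the 8 highest were ULBP1 (0.968), LZTS3 (0.966), YARS (0.954), AARS (0.953), PPP1R3C (0.951), GPT2 (0.951), FTL (0.949) and STC2 (0.948). ULBP1 is a ligand of the NKG2D receptor of natural killer cells, YARS and AARS charge tRNA with tyrosine and alanine, PPP1R3C directs a phosphatase to glycogen and FTL is the light chain of ferritin. ULBP1 was a low transcript, at 0.758 and 1.39 FPKM in controls of set B, 2.44 to 2.89 with magnolin and 3.89 to 4.28 with the fraction.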

How the data were processed

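RNA sequencing was read from 3 gene tables: NCI-H1975 replicates 1 and 2 of each group (set A), replicates 3 and 4 (set B) and HCC827. The authors deposited FPKM per gene. The submitters' processing notes name hg38; which aligner and counter were used, and with what strand setting, is not given in the sources used here. Among the HCC827 columns, 2 carry names that fit no sample and stayed unused. All 58735 gene identifiers and coordinates equalled GENCODE release 29. Reads were rebuilt from FPKM and gene length (100% of values up to 2000 reads came out whole within 0.05) for depth and for an alternative test. No 2 libraries agreed within sampling noise (lowest chi-square per gene 3.73).

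Tests were made within a set, on log2(FPKM + 1), which understates changes of low genes, with limma 3.58.1 (R 4.3.3, empirical Bayes with a mean trend), for genes with at least 1 FPKM in at least 2 libraries. All 3 groups entered 1 fit, and p-values were adjusted by Benjamini-Hochberg over all genes tested, with a threshold of 0.05. The fit was tested on simulated data. The 10 genes and the 8 gene lists (104 of 104 entries matched) were chosen with earlier results of these data known. Named genes were the 10, up to 4 called genes per list and comparison by size of change (otherwise the 4 largest changes), MTHFD2L, ALDH1L1 and PCK1, and the 8 genes most like PHGDH; other genes named were chosen after their values were seen. Some genes on the lists are not reported here. Groups share replicate numbers, and same-numbered libraries deviated from their group means with correlations of 0.742 to 0.781 within set A and -0.0279 to 0.0299 within set B. Over all 4 numbers they were 0.263 to 0.871 (12 pairs), which includes the difference between the 2 sets and so cannot show pairing. Numbers were treated as pairs from this check alone, which showed pairing only within set A. Alternatives were the replicate block, a pseudocount of 0.1, no filter, median-ratio rescaling, limma voom on rebuilt reads, only the 2 groups compared and each library left out.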

Additional observations from a re-analysis of the deposited data

Results flagged for a closer look

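Over the 4 libraries of each NCI-H1975 group, 30 groups of values were examined for a library far from the other 3, across sets that were normalised separately, and chance flags about 1 in 20 such groups. There were 5 such values, all from magnolin replicate 1 or control replicate 1 of set A. Magnolin replicate 1 stood low for ALDH1L2 (1.59 FPKM), PCK2 (5.45) and PSAT1 (63.9) and high for SHMT2 (55.6), and control replicate 1 stood low for PCK2 (2.96).

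Opposite directions in the 2 sets, in both replicate numbers of each, were seen for 6 genes between fraction and magnolin. As log2 changes in set A and then set B these were -0.68 and 0.71 for PHGDH, -0.32 and 0.71 for PSAT1, -0.11 and 0.35 for PSPH, -0.41 and 1.30 for PCK2, -0.33 and 0.85 for ALDH1L2, and 0.26 and -0.47 for MTHFD1. MTHFD1L was lower with magnolin than control in set A (-0.25) and higher in set B (0.24). These differences between the sets were not tested, and the share of all genes that differ in this way was not counted.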

How the results depend on the processing

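Counting error at 15.9 to 21.3 M reads limits ALDH1L2 most, and 2 libraries per group limit all tests. In set A limma called 0 genes in each comparison under each alternative tried except the replicate block, which called 24 for fraction against control, 130 for magnolin against control and 24 for fraction against magnolin; PHGDH and PCK2 passed only with it, for magnolin. In set B, where the numbers showed no sign of pairing, the block gave 43 genes in place of 92 for magnolin against control and 1311 in place of 2188 for fraction against magnolin, and it changed no call of the 10 beyond those given above. Without the filter on low genes, which tests 33660 genes in place of 14673, set B had 1598 calls in place of 2918 for fraction against control, 752 for fraction against magnolin and 0 for magnolin against control (limma voom with the filter called 575, and 3021 genes had an unadjusted p under 0.05), so that none of the 10 was called with magnolin. Limma voom on rebuilt reads called 3330 genes for fraction against magnolin. With only the 2 groups compared in the fit, 1864 and 846 genes were called for the fraction against control and against magnolin. Between fraction and magnolin in set B, 814 calls were higher and 1374 lower, against 959 and 1065 after median-ratio rescaling and 1626 and 1704 with limma voom. Between magnolin and control they were 37 and 55, against 162 and 413 with limma voom. The causes were not tested, apart from the larger number of genes tested without the filter.

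Leaving out each library in turn gave 698 (without control replicate 4) to 3011 calls for fraction against control in set B, 188 (without magnolin replicate 4) to 2749 for fraction against magnolin and 0 (without either control or either magnolin library) to 66 for magnolin against control. A lone library is then assumed to vary like the other groups. In set A, where no change of the 10 passed without a block, the sign of some turned when a library was left out. For fraction against control the log2 changes then ran from -0.0096 to 0.98 for ALDH1L2, -0.0098 to 1.08 for PCK2, -0.052 to 0.99 for PHGDH, -0.51 to 0.54 for PSAT1, -0.26 to 0.50 for SHMT2, -0.36 to 0.37 for SHMT1, -0.12 to 0.15 for MTHFD2 and -0.038 to 0.15 for MTHFD1. For fraction against magnolin they ran from -0.99 to 0.32 for ALDH1L2, -1.05 to 0.23 for PCK2, -0.84 to 0.21 for PSAT1, -0.27 to 0.056 for PSPH, -0.36 to 0.39 for SHMT2, -0.41 to 0.31 for SHMT1 and -0.23 to 0.12 for MTHFD2. For magnolin against control they ran from -0.14 to 0.81 for PSAT1, -0.18 to 0.39 for SHMT2, -0.23 to 0.34 for SHMT1 and -0.10 to 0.24 for MTHFD2. The planned comparison of resistant with parental HCC827 cells was not run.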
